A study of Mus musculus with 9 samples.

Results

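The genes described here are 8 genes of fat cells, Adipoq, Lep, Retn, Plin1, Cidec, Cfd, Fabp4 and Ucp1, measured in cortical kidney RNA of mice. They were picked as fat cell genes with their signals on these arrays in view, so their levels are given as a description and no member was tested. All probes of these symbols on the array were read, 10 probes for 8 of the 32451 named genes and unnamed transcripts that the array measures. On 2 or more of the 9 arrays each of the 8 had a signal well above background, which placed them among the 23877 genes and transcripts kept for the fit.

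The study obstructed the right ureter of wild-type and Notch3-/- mice for 5 days (unilateral ureteral obstruction, UUO), a model of kidney fibrosis and inflammation, and took both kidneys, the left one untreated. The mice were 12 to 16 weeks old per the design text, and their strain was not given in the sources used here. The design text also calls them sex-matched. The sex genes Xist and Ddx3y, given below, read as female on replicates 2 and 3 of Notch3-/- UUO and as male on all other arrays. The groups were wild-type healthy kidneys (2 arrays), wild-type UUO (2 arrays), Notch3-/- healthy (2 arrays) and Notch3-/- UUO (3 arrays), where Notch3-/- mice lack the receptor Notch3 in every cell. The labels do not tie arrays to animals, so the spread between arrays may be technical, and a healthy and a UUO array may come from 1 mouse. An exception is set by the sex genes. By them, replicates 2 and 3 of Notch3-/- UUO come from other mice than replicate 1 and than the healthy arrays. All wild-type arrays were scanned on other days than the Notch3-/- arrays, so genotype and scan day cannot be told apart. Within wild type the healthy arrays lay on slides 1 and 2 and both UUO arrays on slide 3, each slide scanned on a day of its own, so no wild-type slide or scan day held both treatments.

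White adipocytes store triglyceride in a large droplet and secrete hormones, while brown adipocytes burn fat for heat through the mitochondrial protein UCP1. Fat of both kinds lies around the mouse kidney, outside the capsule, and the cortex itself is not a fat depot. Adipoq encodes adiponectin, Lep leptin and Retn resistin, which are secreted by fat cells, and Cfd encodes adipsin, a complement protease that fat cells secrete in large amounts. Plin1 and Cidec encode coat and fusion proteins of the fat droplet, and Fabp4 encodes a fatty acid binding protein that macrophages and capillary endothelium make as well.

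The sequence before the members' start sites was searched for short motifs, with Lep included, which did not move with the others from array to array. RefSeq windows of 250 bases upstream of the start (build GRCm38.p6) were at hand for 7 of the 8 genes, with 2 windows for Cidec and none for Fabp4. The 4 windows printed are those of a secreted hormone of white fat (Adipoq, chr16:23146286-23146535, plus strand), the hormone that stood apart from the other members (Lep, chr6:29059971-29060220, plus strand), a droplet protein (Plin1, chr7:79732777-79733026, minus strand) and the brown fat gene (Ucp1, chr8:83290098-83290347, plus strand), each 5′ to 3′ with motif matches in capitals.
Adipoq: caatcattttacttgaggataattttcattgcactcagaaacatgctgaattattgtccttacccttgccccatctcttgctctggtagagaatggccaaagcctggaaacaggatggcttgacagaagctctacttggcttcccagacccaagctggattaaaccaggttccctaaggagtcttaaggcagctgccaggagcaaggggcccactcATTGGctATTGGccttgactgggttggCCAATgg
Lep: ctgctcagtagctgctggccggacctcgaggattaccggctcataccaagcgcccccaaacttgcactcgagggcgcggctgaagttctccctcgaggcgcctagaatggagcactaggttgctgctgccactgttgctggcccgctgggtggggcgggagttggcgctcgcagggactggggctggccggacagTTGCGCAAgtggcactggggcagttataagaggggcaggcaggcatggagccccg
Plin1: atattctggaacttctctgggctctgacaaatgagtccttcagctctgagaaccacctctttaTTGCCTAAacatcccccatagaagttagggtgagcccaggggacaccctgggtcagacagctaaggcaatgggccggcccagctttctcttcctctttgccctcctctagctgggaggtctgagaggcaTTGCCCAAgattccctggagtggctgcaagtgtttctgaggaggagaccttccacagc
Ucp1: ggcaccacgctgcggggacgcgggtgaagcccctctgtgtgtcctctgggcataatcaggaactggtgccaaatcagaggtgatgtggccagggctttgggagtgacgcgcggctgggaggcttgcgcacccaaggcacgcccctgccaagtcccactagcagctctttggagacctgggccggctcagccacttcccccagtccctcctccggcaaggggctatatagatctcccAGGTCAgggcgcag
On both strands, TTGCNNAA, a form of the C/EBP site, matched in 3 of the 7 genes and in 9.56% of all 32851 windows. Members are counted by gene and the percentages by window, and Cidec, with 2 windows, counted through its second alone. Lep held TTGCGCAA starting 55 bases before the start site, Plin1 held TTGCCTAA at 187 and TTGCCCAA at 58 bases, and the second Cidec window held TTGCTCAA at 198 bases. AGGTCA, a core element of many nuclear receptors, matched in Ucp1 14 bases before the start, the only member of 7, and in 14.0% of all windows. The DR1 element, a direct repeat of AGGTCA with 1 base between, which PPAR and RXR receptors bind and which contains the single element, was in none of the 7 and in 0.0335% of all windows. CCAAT, in capitals as ATTGG where it lay on the other strand, matched 3 times in Adipoq and in no other member, against 33.8% of all windows, and TATAAA matched in 0 of 7 members and in 12.4% of windows. A match describes letters and does not show that a protein binds there.

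Levels are given as log2 of the processed spot signal minus the array's 75th percentile, so 0 is the signal that 75% of the spots stay below. Probes differ in brightness, so a level is read across arrays and not against another gene's. The 8 genes fell into 3 patterns. Adipoq, Retn, Plin1, Cidec, Cfd and Fabp4 were present in all 4 groups and lowest on the same 2 arrays, replicate 1 of Notch3-/- UUO and replicate 1 of Notch3-/- healthy. Ucp1 was also at background on another array, wild-type healthy replicate 2, and Lep was above background on the wild-type healthy arrays alone. The spread lay within groups more than between them, as the plot of the 8 genes by array shows.

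**Figure D1:**
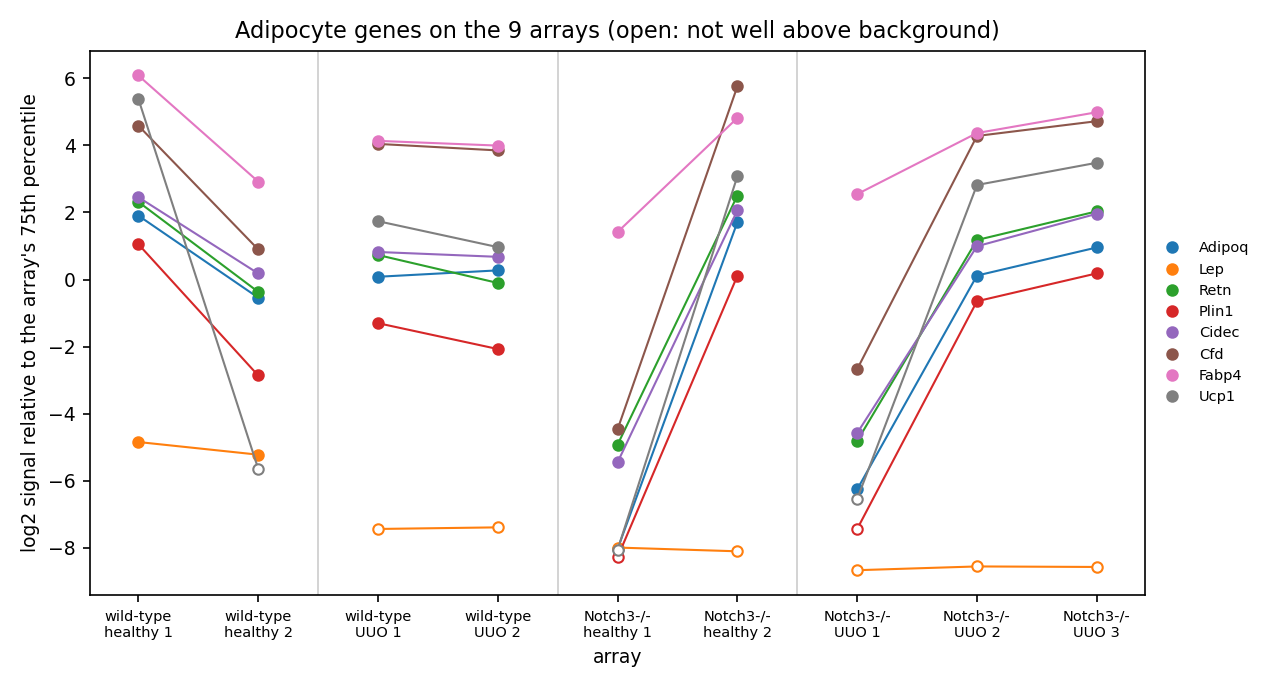
Level of each of the 8 adipocyte genes (log2 signal relative to the 75th percentile, vertical axis) on each of the 9 arrays, grouped by genotype and treatment, with open points where the signal was not well above background and lines that only join arrays of a group. For 7 of the genes the lowest points are replicate 1 of Notch3-/- UUO and replicate 1 of Notch3-/- healthy, and leptin is filled on the wild-type healthy arrays alone.

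Adiponectin was measured at 1.91 and -0.54 on the wild-type healthy arrays, 0.08 and 0.27 on the wild-type UUO arrays, -6.26, 0.12 and 0.96 on the Notch3-/- UUO arrays, and -8.04 (not well above background) and 1.71 on the Notch3-/- healthy arrays. Replicate 2 of Notch3-/- healthy therefore read at least 215-fold above replicate 1 of the same group, and replicates 2 and 3 of Notch3-/- UUO read 83.3-fold and 149-fold above replicate 1. The wild-type UUO arrays, in contrast, differed by a ratio of 0.876, and the wild-type healthy arrays by 5.45-fold. The other 7 arrays besides the lowest pair lay between -0.54 and 1.91 whatever their genotype or treatment, and all 4 groups overlapped.

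Resistin had the same order at the bottom. It was at 2.32 and -0.37 in wild-type healthy, 0.73 and -0.10 in wild-type UUO, -4.82, 1.18 and 2.03 in Notch3-/- UUO, and -4.93 and 2.50 in Notch3-/- healthy. Its highest and its lowest array were the replicates of 1 group, Notch3-/- healthy, and lay 172-fold apart. A second Retn probe gave -5.86 and -6.15 on the 2 low arrays, the latter not well above background, and -0.70 to 2.26 on the others.

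Adipsin had the second-widest range of the 8, 10.2 log2 units. It was at 4.59 and 0.90 in wild-type healthy, 4.04 and 3.85 in wild-type UUO, -2.67, 4.28 and 4.72 in Notch3-/- UUO and -4.47 and 5.76 in Notch3-/- healthy. The Notch3-/- healthy arrays differed 1198-fold, both with a signal well above background, and replicates 2 and 3 of Notch3-/- UUO exceeded replicate 1 by 124-fold and 168-fold. The wild-type UUO arrays again agreed, with a ratio of 1.14, and the wild-type healthy arrays differed 12.9-fold.

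Leptin did not follow the other hormones. It was at -4.85 and -5.22 on the wild-type healthy arrays, and not well above background on any of the other 7 arrays, at -7.44 and -7.39 in wild-type UUO, -8.67, -8.56 and -8.57 in Notch3-/- UUO and -8.00 and -8.11 in Notch3-/- healthy. On the processed signal, wild-type healthy was at least 1.93-fold higher than wild-type UUO and at least 2.01-fold higher than Notch3-/- healthy. Here each dim array counts at the lowest signal that was well above background on it. The log2 differences of wild-type UUO and of Notch3-/- healthy from wild-type healthy, with signals below background included, were -2.38 and -3.02. With normexp they were -0.66 and -0.17, and in the authors' table they were -0.84 and -1.05. Both normexp differences are smaller than the fold bounds, so the bounds hold for the processed signal alone. Arrays with ample adiponectin, such as Notch3-/- healthy replicate 2 at 1.71, thus had no leptin signal above background, and wild-type healthy replicate 2 had leptin beside the lowest adiponectin of the wild-type arrays. The Lep probe is spotted 10 times per array, and 7 of its spots over the 9 arrays were flagged as outliers. Its residual SD of 0.13 was the smallest of the 8, and it describes mostly signals at background.

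Of the droplet genes, Plin1 (perilipin 1, which coats the droplet and gates lipolysis) was at 1.05 and -2.86 in wild-type healthy, -1.30 and -2.07 in wild-type UUO, -7.44, -0.65 and 0.18 in Notch3-/- UUO, and -8.29 and 0.11 in Notch3-/- healthy. The -7.44 and the -8.29 were not well above background. Replicate 2 of Notch3-/- healthy exceeded replicate 1 at least 71.1-fold, replicate 3 of Notch3-/- UUO exceeded replicate 1 at least 109-fold, and the wild-type healthy arrays differed 15.1-fold. All 4 groups overlapped.

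Cidec, which lets droplets fuse into larger ones, was at 2.46 and 0.18 in wild-type healthy, 0.82 and 0.68 in wild-type UUO, -4.58, 0.99 and 1.96 in Notch3-/- UUO, and -5.45 and 2.06 in Notch3-/- healthy. It tracked adiponectin most closely among the members, with a Pearson correlation of 0.996 over the 9 arrays and 0.965 over the 7 arrays without the lowest pair. A second Cidec probe was not well above background on the 2 low arrays and lay between -3.19 and -1.35 on the others.

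Fabp4 moved in the same direction with the smallest spread of the 7. It was at 6.09 and 2.92 in wild-type healthy, 4.14 and 3.99 in wild-type UUO, 2.55, 4.37 and 4.99 in Notch3-/- UUO, and 1.42 and 4.82 in Notch3-/- healthy, well above background throughout. Replicate 2 of Notch3-/- healthy was 10.6-fold above replicate 1, against 172-fold or more for Retn, Cidec, Cfd and Adipoq in that pair. Of the other cells that make it, macrophage markers (10 genes) had a summed linear level of 30.7 to 32.0 in wild-type healthy, 51.1 to 51.3 in wild-type UUO, 31.0 to 40.5 in Notch3-/- healthy and 46.0 to 49.6 in Notch3-/- UUO, and the sum was higher on the low Notch3-/- healthy array (40.5) than on the other (31.0). Endothelium markers (12 genes) summed to 44.0 to 45.4, 41.3 to 48.0, 32.6 to 33.3 and 42.7 to 47.1 in the same order, and the part of either cell type in the Fabp4 level was not tested.

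Ucp1 had the widest range of the 8, 13.5 log2 units. It was at 5.39 and -5.64 in wild-type healthy, 1.74 and 0.97 in wild-type UUO, -6.55, 2.82 and 3.48 in Notch3-/- UUO, and -8.07 and 3.08 in Notch3-/- healthy. The -5.64, the -6.55 and the -8.07 were not well above background, so 1 array in each of 3 groups lacked a Ucp1 signal above background. The wild-type healthy arrays differed at least 2090-fold, and replicate 3 of Notch3-/- UUO exceeded replicate 1 at least 1044-fold. On wild-type healthy replicate 2, adiponectin was still at -0.54 where Ucp1 was at background. The plot of Ucp1 against Adipoq shows that array by itself.

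**Figure D2:**
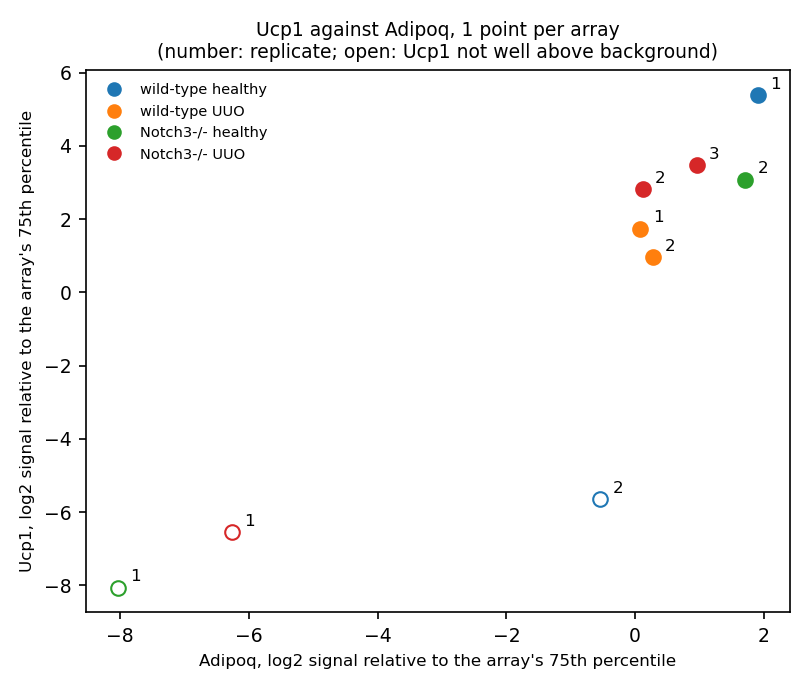
Ucp1 level (vertical axis) against Adipoq level (horizontal axis), both log2 signal relative to the 75th percentile, with 1 point per array coloured by group and open where Ucp1 was not well above background. Wild-type healthy replicate 2 lies at -0.54 for Adipoq and -5.64 for Ucp1, while the 2 low Notch3-/- arrays are low in both.

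Measured against the rest of the array, these genes were among the most variable within groups. The residual SD over the 9 arrays was 6.10 log2 units for Ucp1, and 0 of the 23877 genes and transcripts tested had a larger one. It was 4.33 for Cfd, 4.04 for Adipoq, 3.95 for Plin1, 3.45 for Retn and 3.34 for Cidec, with 6, 10, 11, 18 and 20 genes above them, against a median of 0.25 over all genes. Fabp4 followed with 1.67 and 312 genes above it, and Lep lay in the lower range with 19513 above it. The members were chosen with this spread in view.

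The differences between groups came with large errors for all members but leptin, which was well above background on 2 of the 9 arrays. In UUO against healthy wild-type kidneys the log2 difference was -0.51 ± 3.46 (SE) for Adipoq, -0.66 ± 2.95 for Retn, 1.20 ± 3.70 for Cfd and 1.48 ± 5.22 for Ucp1. In Notch3-/- kidneys the same contrast gave 1.44 ± 3.16 for Adipoq, 0.68 ± 2.69 for Retn, 1.46 ± 3.38 for Cfd and 2.41 ± 4.77 for Ucp1. Values below background enter these means, and they moved with the background correction: with normexp the Notch3-/- contrast was -0.08 for Adipoq, 0.16 for Retn, 0.84 for Cfd and 1.02 for Ucp1 and the wild-type contrast 0.46 for Ucp1, and in the authors' table Adipoq in Notch3-/- kidneys was at 0.46 and Ucp1 in wild-type kidneys at 0.89. These differences describe where the low arrays fell: without replicate 1 of Notch3-/- healthy the Adipoq difference in Notch3-/- kidneys became -3.44, and without replicate 2 it became 6.31.

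Between genotypes the UUO arrays differed by -1.91 ± 3.16 for Adipoq, -1.29 ± 2.61 for Cidec and -1.43 ± 4.77 for Ucp1 (Notch3-/- minus wild-type), and the healthy arrays by -3.85 ± 3.46, -3.01 ± 2.86 and -2.37 ± 5.22. With normexp these were -0.89, -0.88 and -0.38 for UUO and -1.38, -1.79 and -0.93 for healthy kidneys. In the authors' table Adipoq and Ucp1 were at -1.07 and -0.57 for UUO and at -2.16 and -1.41 for healthy kidneys. In both Notch3-/- groups replicate 1 was low in these genes and the other arrays were high. On wild-type healthy replicate 2 Ucp1 was at background, while Adipoq was at -0.54 and Cidec at 0.18. Neither wild-type UUO array was low. Leaving out the 2 lowest Notch3-/- arrays, which were picked by these levels, turned the Adipoq difference to 0.36 between the UUO groups and 1.02 between the healthy groups. The 2 contrasts within a genotype and the 2 between genotypes share arrays, so their values are not independent.

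The median difference of the 8 genes was -0.54 in wild-type UUO against healthy, 1.29 in Notch3-/- UUO against healthy, -1.24 between the UUO groups and -2.69 between the healthy groups, where the medians over all genes tested were 0.04, -0.07, -0.00 and 0.06. Leptin was the single member whose arrays did not overlap between groups, 1 of 8 lower in each of the 4 comparisons. Over all genes tested, 31.1%, 35.2%, 22.9% and 17.4% had lower arrays without overlap in these 4 comparisons and 33.5%, 26%, 20.7% and 27.8% had higher ones. Between Notch3-/- UUO and Notch3-/- healthy, and between the UUO groups, leptin was below background on both sides, so its order there has no meaning.

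**Figure D3:**
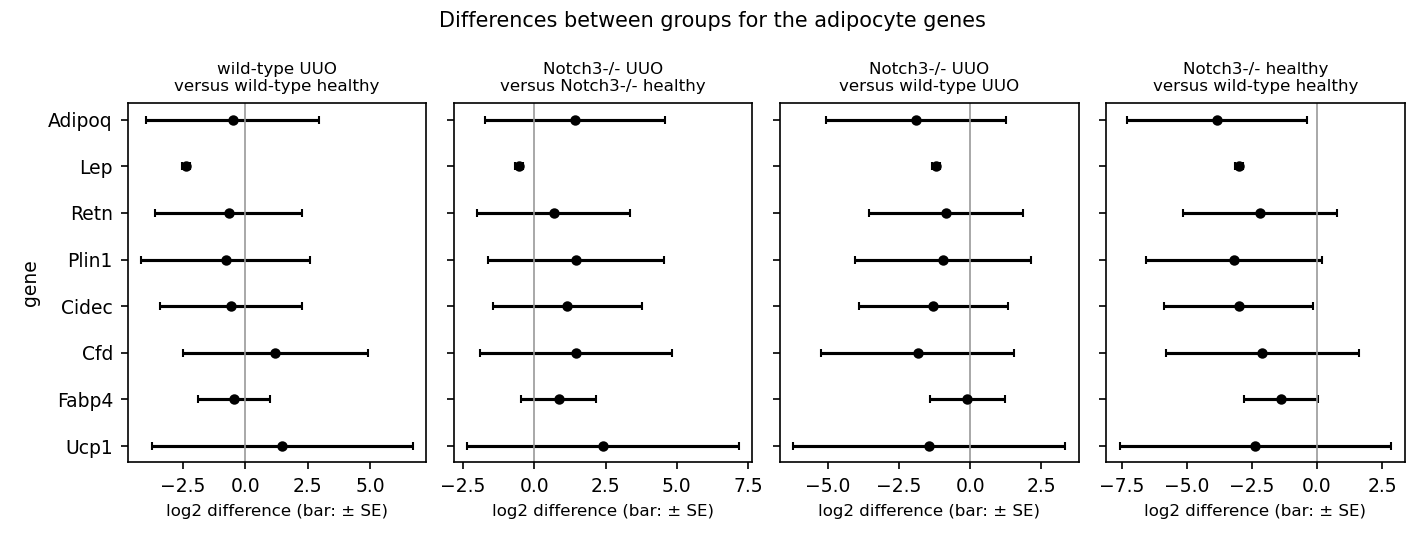
Log2 difference of each of the 8 adipocyte genes in the 4 comparisons (1 panel each), with bars of 1 standard error from the fit to all 9 arrays. The bars are shortest for Lep, at 0.14 to 0.16, and longest for Ucp1, at 4.77 to 5.22 log2 units on each side. Lep was well above background on 2 of the 9 arrays.

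The other genes of the fat cell were counted in the fit across all genes, with limma and a Benjamini-Hochberg adjusted p under 0.05 over 23877 genes and transcripts. Of 37 further adipocyte genes, 36 were tested. In wild-type UUO kidneys 7 fell and 0 rose, where 11.8% of all genes fell and 14.1% rose. They were Gpd1 and Dgat2 of triglyceride synthesis (log2 difference -1.66 ± 0.21 and -1.91 ± 0.29, limma adjusted p 0.0037 and 0.0071), the insulin-responsive glucose transporter Slc2a4 (-1.95 ± 0.34, adjusted p 0.010), Gpam and Acsl1 of fatty acid activation and esterification (-0.73 ± 0.14 and -1.04 ± 0.25), the glycerol channel Aqp7 (-0.90 ± 0.17) and Sncg (-1.36 ± 0.36). All 7 were well above background on every array, the low ones included, and several are also made by kidney tubules. The count was 2 without either wild-type UUO array.

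In Notch3-/- kidneys 7 of the 36 fell and 2 rose, where 13.9% of all genes fell and 13.3% rose. Slc2a4 (-1.54 ± 0.31), Dgat2 (-1.59 ± 0.27), Gpd1 (-1.06 ± 0.19), Acsl1 (-0.83 ± 0.23), Aqp7 (-0.55 ± 0.16) and Gpam (-0.79 ± 0.12) fell in both genotypes, and Lpl, the lipoprotein lipase, fell here by 2.03 ± 0.49. Angptl4, an inhibitor of that lipase, rose by 1.95 ± 0.55 and Mest, a gene of growing fat cells, by 1.40 ± 0.40. A fit without replicates 2 and 3 of Notch3-/- UUO keeps replicate 1 alone in that group. Without the 2 Notch3-/- UUO arrays with high Xist and adrenal markers, described below, the count was 0 in place of 9. It was 1 without either Notch3-/- healthy array, 2 and 3 without replicate 2 or 3 of Notch3-/- UUO, and 5 without either wild-type UUO array.

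Between genotypes, 0 of the 36 passed for UUO kidneys, where 0.0796% of all genes rose and 0.205% fell, and 0 for healthy kidneys, where 0.239% rose and 0.272% fell. The numbers at an unadjusted limma p under 0.05 were 2 and 3. The difference of the 2 genotypes' responses to UUO was called for 0 of the 36, with 1 at an unadjusted p under 0.05, and for 0% of all genes. These counts of 0 stayed at 0 in all other settings that were run.

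A share of the other adipocyte genes had the members' array pattern, and 0 of those were among the genes called. A low array within each Notch3-/- group widens the residual SD of such a gene in every comparison, so that 0 says little about these genes. The 2 low Notch3-/- arrays were the lowest of the 9 for 7 of the 8 members by choice, for 14 of the 36 other adipocyte genes (38.9%), and for 312 of 23834 genes measured on all arrays (1.31%). Adrb3, the adrenergic receptor of fat cells, was at 0.99 and -2.61 in wild-type healthy, -1.08 and -1.60 in wild-type UUO, -6.58, -0.70 and -0.75 in Notch3-/- UUO and -8.29 and -0.24 in Notch3-/- healthy, with the -6.58 and the -8.29 not well above background. Thrsp, a regulator of fatty acid synthesis, was at 2.02, -0.69, 1.96, 0.50, -3.23, 1.77, 2.63, -3.21 and 3.29 in the same order of arrays. Plin4, a droplet coat protein, was at -1.90 and -2.00 on the 2 low arrays and between -0.05 and 1.87 on the others. None of these 3 passed the test in any comparison.

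By contrast, adipocyte genes that many cells use differed less on the low arrays. The lipase Pnpla2 was at 2.59 and 3.04 on the low Notch3-/- UUO and healthy arrays and between 2.89 and 3.70 elsewhere, and Cebpa, a transcription factor of fat cells and of other epithelia, at -0.47 and -0.88 against -0.99 to -0.09. Pparg, the nuclear receptor that drives fat cell formation, lay at -1.37 and -1.97 on those arrays, at -1.46 on wild-type healthy replicate 2 and between -1.07 and 0.19 on the others. Of the 15 lipid droplet genes that many tissues express, 0 differed by more than 1 log2 unit between the Notch3-/- healthy arrays and 1 was higher on wild-type healthy replicate 1 than on replicate 2. Against replicate 1 of Notch3-/- UUO, 2 were lower on replicate 2, and on replicate 3 1 was higher and 3 were lower.

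A share of the brown fat genes had the Ucp1 pattern. Of 18 tested (of 19 listed), Cidea, Cox8b, Ebf2, Elovl3, Kcnk3 and Slc36a2 had the 2 low Notch3-/- arrays as their lowest (33.3%), and with wild-type healthy replicate 2 among the lowest 3 arrays, 9 of 18 did (50%), against 195 of 23834 genes (0.818%). Cidea, a droplet protein of brown fat, was at 3.80 and -2.84 in wild-type healthy, 2.19 and 1.05 in wild-type UUO, -4.60, 2.50 and 3.40 in Notch3-/- UUO, and -4.73 and 3.52 in Notch3-/- healthy. Cox8b, a subunit of mitochondrial complex IV in brown fat and muscle, was at 3.16, -4.48, 1.18, 0.80, -5.06, 1.77, 2.69, -5.40 and 2.88 in that order. The 3 arrays low in Ucp1 were low in both genes, and the other 6 lay at 0.80 or above.

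**Figure D4:**
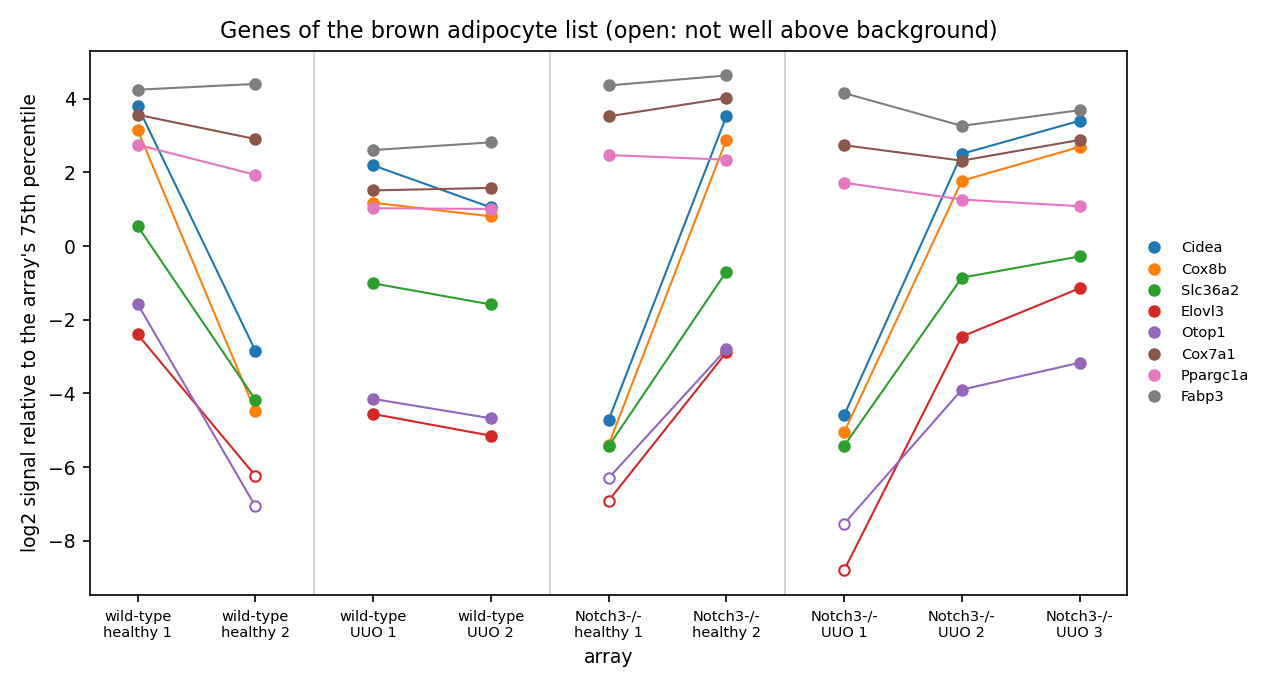
Levels of 8 genes of the brown adipocyte list (log2 signal relative to the 75th percentile) by array in the 4 groups, open where not well above background, with lines that only join arrays of a group. Cidea and Cox8b are low on wild-type healthy replicate 2 and on replicate 1 of both Notch3-/- groups, at -2.84 to -5.40, and at 0.80 or above on the other 6 arrays.

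Brown fat genes that kidney tubules and muscle also express behaved otherwise. In wild-type UUO 6 of the 18 fell and 0 rose, where 11.8% of all genes fell and 14.1% rose: Cox7a1 (-1.69 ± 0.30, limma adjusted p 0.011), Cpt1b, Fabp3, Ppargc1a, Acot11 and Gk, from mitochondrial respiration and fatty acid oxidation. In Notch3-/- UUO 4 fell, Cox7a1 (-1.12 ± 0.27), Ppargc1a (-1.05 ± 0.28), Acot11 and Gk, and 0 rose, where 13.9% of all genes fell and 13.3% rose. Between genotypes limma called 0, with 5 and 2 at an unadjusted p under 0.05 in UUO and healthy kidneys, and 0 for the difference of responses, with 0 at that level. The wild-type count was 0 without replicate 1 of wild-type UUO and 1 without replicate 2, and the Notch3-/- count was 0 without any 1 of the Notch3-/- arrays other than UUO replicate 1, and 0 without the high-Xist pair.

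Receptors of the fat hormones were measured in the kidney whatever the hormone did. Adipor1 and Adipor2, the adiponectin receptors, fell in wild-type UUO (-0.69 ± 0.12, limma adjusted p 0.011, and -0.55 ± 0.14, adjusted p 0.034), and Cap1, which binds resistin, rose (0.63 ± 0.14, adjusted p 0.022). In Notch3-/- UUO Adipor2 fell (-0.48 ± 0.13, adjusted p 0.039), as did the leptin receptor Lepr (-0.89 ± 0.24, adjusted p 0.043), for which replicate 2 of Notch3-/- healthy was left out as an outlier spot. By limma 0 of the 7 receptor and adaptor genes passed between genotypes, with 2 each at an unadjusted p under 0.05. There 0.0796% of all genes rose and 0.205% fell for UUO, and 0.239% and 0.272% for healthy kidneys. The difference of responses was called for 0 of the 7 and for 0% of all genes, with 3 at an unadjusted limma p under 0.05. Against healthy kidneys, 1 of the 7 rose and 2 fell in wild-type UUO (14.1% and 11.8% of all genes). In Notch3-/- UUO 2 fell and 0 rose (13.9% and 13.3%). Neither count held in every setting: without replicate 1 of wild-type UUO the first was 0, and without the high-Xist pair they were 1 and 0.

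Hilpda, an inhibitor of lipolysis that hypoxia induces, rose in wild-type UUO (1.59 ± 0.27, limma adjusted p 0.0092) and in Notch3-/- UUO (1.24 ± 0.24, adjusted p 0.017). Of the 15 lipid droplet genes it was the single one to rise. G0s2, Abhd5, Hsd17b11 and Ldah fell in wild-type UUO, where 14.1% of all genes rose and 11.8% fell. Cideb and Fitm1 fell in Notch3-/- UUO, where 13.3% of all genes rose and 13.9% fell. The wild-type count of 5 moved between 0 and 9 as single arrays were left out, and the Notch3-/- count of 3 (1 rose, 2 fell) between 0 and 7. Without the high-Xist pair they were 2 and 0.

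Pairs of arrays in 1 group show how far the pattern reached. Between the Notch3-/- healthy arrays, 17 of 36 other adipocyte genes and 9 of 18 brown fat genes were higher by over 1 log2 unit on replicate 2, against 3.52% of all genes. Between replicates 2 and 1 of Notch3-/- UUO these counts were 17 and 9, against 5.54% of all genes, and between the wild-type healthy arrays 17 and 11, against 5.59%. Between the wild-type UUO arrays, which agreed in the members, they were 2 and 1, against 2.33%. Kidney nephron markers differed by over 1 log2 unit for 0 of 12 genes between the Notch3-/- healthy arrays and for 8 of 12, all lower on replicate 2, between Notch3-/- UUO replicates 2 and 1. On replicate 3, 8 of 12 were also lower than on replicate 1. Their summed linear level was 425 on replicate 1 of Notch3-/- UUO, 228 and 234 on replicates 2 and 3, and 184 and 232 on the wild-type UUO arrays.

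Among the genes most like Adipoq over the 9 arrays, taken from named non-members with a range of at least 2 log2 units, were Adrb3, Orm1, Bche, Lipe, Rbp4, Plin4, Serpina3c, Slc7a10 and Pnpla3, with Pearson correlations from 0.948 to 0.987. Over the 7 arrays without the lowest pair they were 0.701 to 0.990, the highest for Lipe, the hormone-sensitive lipase. Among the genes most like Ucp1 were Slc36a2, Cox8b, Cidea, Myl1, B3galt2, Slc24a3, Clstn3, Prkar2b and Igsf21, at 0.959 to 0.994 over 9 arrays and 0.924 to 0.996 over the 7. Among the members, correlations with Adipoq were 0.977 for Retn, 0.980 for Plin1, 0.971 for Cfd, 0.895 for Fabp4, 0.880 for Ucp1 and 0.337 for Lep over 9 arrays. The points share the arrays and their scaling, and some of them lie at background, so the correlations are given without a test.

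Other tissues that lie beside the kidney were read the same way. Adrenal cortex markers (15 genes) had a summed linear level of 279.9 and 344 on replicates 2 and 3 of Notch3-/- UUO and of 18.6 to 33.3 on the other 7 arrays, and adrenal medulla markers (11 genes) 56.9 and 68.1 against 4.43 to 18.5. The sums do not show dim markers. On the wild-type UUO arrays 9 and 8 of the 11 medulla markers were well above background, against 6 and 6 on the wild-type healthy arrays. Of the 15 cortex markers 12 and 10 were, against 10 and 9. Over all spots 71.4% and 67.7% were, against 69.1% and 65.3%. Replicates 2 and 3 of Notch3-/- UUO also had high Xist, at 0.18 and -0.00 against -5.71 or less elsewhere. Their Ddx3y was low, at -3.80 and -3.67 against -0.26 or more, a pattern of female tissue, although Ddx3y was still well above background there. This goes against the sex matching of the design text. In comparisons with Notch3-/- UUO, sex is therefore partly mixed with treatment and genotype, and replicates 2 and 3 differ from replicate 1 in sex as well. The summed level of the 8 fat genes was 53.1 and 80.4 on these 2 arrays. On wild-type healthy replicate 1 and Notch3-/- healthy replicate 2 it was 150.2 and 105, with adrenal cortex sums of 25.4 and 27.6. Mrap, which both fat and adrenal cells make, and Kcnk3 were highest on the 2 adrenal-rich arrays, at 1.36 and 1.71 and at 1.62 and 1.96.

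Mesothelium markers also differed between the healthy arrays: 4 of 6 were higher by over 1 log2 unit on Notch3-/- healthy replicate 2 than on replicate 1, and 3 of 6 on wild-type healthy replicate 1 than on replicate 2. Between Notch3-/- UUO replicates 2 and 1 the markers went both ways, with 1 of 6 higher and 3 of 6 lower by over 1 log2 unit on replicate 2, and 3 of 6 were lower on replicate 3 than on replicate 1. Their part in the fat gene levels was not tested. Notch3 itself was at -0.50 to 0.92 on the wild-type arrays and at -5.39 to -3.63 on the Notch3-/- arrays, which matches the genotype labels. Its probe was still well above background on every Notch3-/- array. Between 65.3% and 73.2% of the 43020 spots of each array were well above background and 0 were saturated.

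**Figure D5:**
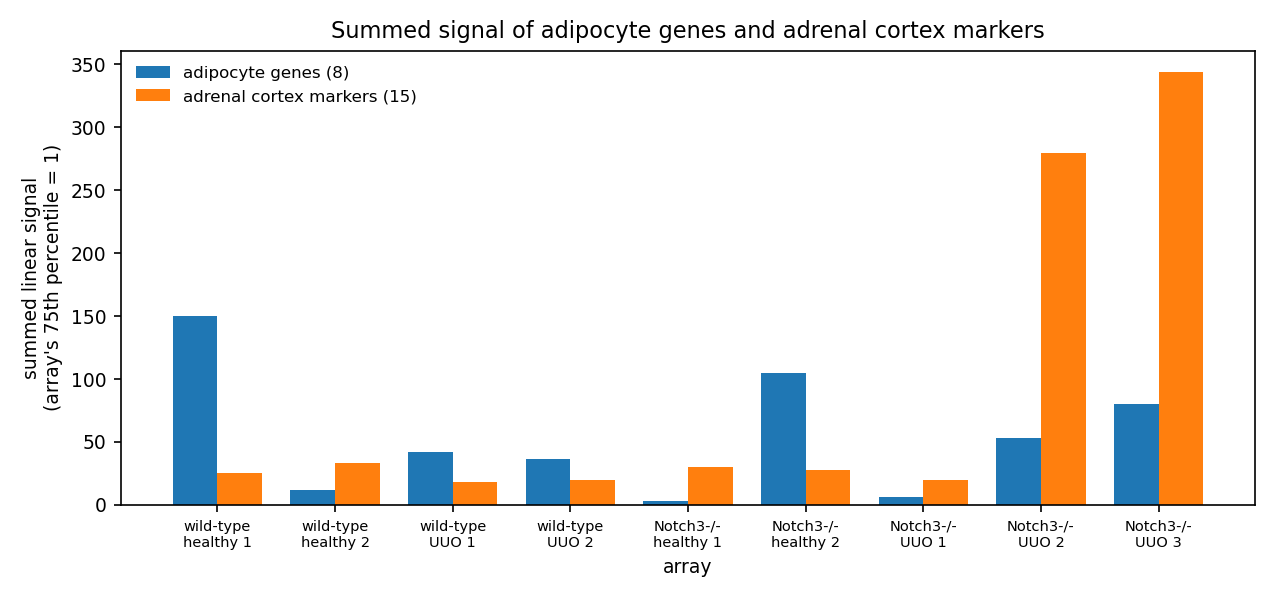
Summed linear signal per array (bars, with the array's 75th percentile as 1) of the 8 adipocyte genes and of 15 adrenal cortex markers. The adipocyte sum runs from 2.78 on Notch3-/- healthy replicate 1 to 150.2 on wild-type healthy replicate 1, and the adrenal cortex sum reaches 279.9 and 344 on replicates 2 and 3 of Notch3-/- UUO alone.

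The summed level of the 8 genes, which is made up largely of Fabp4, Cfd and Ucp1, was 150.2 and 12.2 in wild-type healthy, 42.3 and 36.3 in wild-type UUO, 6.11, 53.1 and 80.4 in Notch3-/- UUO and 2.78 and 105 in Notch3-/- healthy. Slide 4 held all 3 Notch3-/- UUO arrays and replicate 1 of Notch3-/- healthy, so arrays with high and with low levels of the fat genes lay on 1 slide. The label of perirenal fat names a place that these arrays do not measure. In whole-tissue RNA, fewer fat cells and less of these transcripts per fat cell cannot be told apart, and neither can fat outside the capsule and fat within the dissected cortex.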

How the data were processed

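Cortical kidney RNA was labelled with Cy3 and hybridised to 9 one-colour Agilent arrays on 5 slides. Per the file headers the deposited processed signal is an intensity, background-subtracted and not normalized between arrays, and the headers name Feature Extraction 10.7.3.1 (10.5 in the submitters' processing notes). The authors' deposited table is on a log2 scale (column medians 7.02 to 7.05, correlation 0.971 to 0.986 with the processed signals), and their method was not given in the sources used here.

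Outlier spots (117 to 204 per array) were left out, log2 signals were set relative to the array's 75th percentile, and replicate spots were averaged. A probe entered if 2 or more arrays had it well above background (29333 of 39429). The brightest probe stood for a gene, and names came from accessions matched to a table of assembly GRCm38.p6 (27234 probes named). A single limma fit (version 3.58.1, R 4.3.3) estimated the group means from the 9 arrays (5 residual degrees of freedom, Benjamini-Hochberg threshold 0.05), and the steps were tested on simulated data. A gene at background in a group has only a bound, in which a dim array counts at the higher of its own signal and the lowest signal well above background.

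The members and gene lists were chosen with earlier results of these data known. By rule all members are named, from each list up to 6 genes with the smallest adjusted p and any gene above level 0 on an array, and the 10 genes most like Adipoq and Ucp1, of which 1 in each set is not reported here. Ebf2, Elovl3, Pnpla3 and other dim genes that share the members' lowest arrays were named after their values were seen. Alternatives were quantile normalization, normexp (offset 50), the authors' table, no probe filter, slide and replicate blocks, and leaving out each array. Added after seeing the data were fits without the high-Xist pair or the 2 arrays lowest in adipocyte genes and a crossed replicate block. Leaving out the high-Xist pair left replicate 1 alone in Notch3-/- UUO, and leaving out an array of a group of 2 also left a single array. The part of group size in the changed counts was not tested.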

Additional observations from a re-analysis of the deposited data

How the results depend on the processing

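No member was tested. Of 480 log2 differences of members under the alternatives, 423 moved by less than the gene's own residual SD, 57 moved by more and 62 changed sign. That SD was 3.34 to 6.10 log2 units for Adipoq, Retn, Plin1, Cidec, Cfd and Ucp1. Leaving out an array outside a contrast cannot change its difference, so the 423 are no measure of stability. Over all genes, wild-type UUO against healthy gave 6178 calls, 2405 with slide as a random block and 1285 to 7449 without single arrays. Notch3-/- UUO against healthy gave 6493, 402 without the high-Xist pair and 1226 to 8643 without single arrays. Notch3-/- against wild-type UUO gave 68, and 140 with quantile normalization, 213 with normexp, 297 in the authors' table, 2 with the slide block, 0 without the high-Xist pair, 161 without the Notch3-/- arrays lowest in adipocyte genes and 1 to 632 without single arrays. Notch3-/- against wild-type healthy gave 122, and 78 without the filter, 63 in the authors' table, 12 with the slide block, 3 without the high-Xist pair, 2 without the lowest arrays and 1 to 217 without single arrays. The difference of responses gave 0, 9 without the lowest arrays and 0 to 53 without single arrays. The other adipocyte genes gave 2 to 9 calls (7 with all arrays) in wild-type and 1 to 11 (9 with all arrays) in Notch3-/- kidneys without single arrays, where 5 were called without the filter and 0 without the high-Xist pair.

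Same replicate numbers were not shown to pair the arrays: deviations of same-numbered arrays correlated at 0.0701 to 0.157 between UUO and healthy and at -0.173 to -0.113 between genotypes. With the replicate block the counts over all genes were 2585, 924, 0 and 1 in the order above, and 3 and 0 for the other adipocyte genes in wild-type and Notch3-/- kidneys. With crossed numbers the block gave 3 between the healthy groups.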
